A study of Mus musculus with 12 samples.

Results

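Cells of the immune system make up a small share of the liver, and their RNA is measured together with that of hepatocytes when a whole liver is extracted. The 9 genes described here mark T and B lymphocytes: Cd2, Cd3d, Cd3e, Cd3g, Cd4 and Cd8a for T cells, and Cd79a, Cd79b and Ms4a1 for B cells. They were taken as all non-control probes whose gene name in the deposited array files equals 1 of these symbols, which gave 14 of 41174 probes and 32 of 43379 spots. All 9 genes were among the 18721 genes and unnamed probes tested, of 27814 measured, and 11 of the 14 probes passed the filter, a signal well above background throughout 1 or more of the groups.

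The arrays come from a study of Hes1 and glucocorticoid signalling in male C57BL/6 mice aged 8 to 10 weeks, with 4 groups of 3 mice and 1 array per mouse. The groups are untreated wild-type mice, wild-type mice given dexamethasone, untreated HESKOL mice and HESKOL mice given dexamethasone. Dexamethasone, a synthetic glucocorticoid, was injected into the peritoneum at 1 mg/kg and the liver was taken 6 hours later. All 12 mice, untreated ones included, had been adrenalectomized, so they lacked their own adrenal glucocorticoids. Whether untreated mice received a vehicle is not stated in the labels. They do not spell out HESKOL, its allele or any Cre driver, so the cells in which a gene was altered are not known here.

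T cells recognise antigen through a receptor whose chains signal through the CD3 complex, which is assembled from the products of Cd3d, Cd3e, Cd3g and Cd247. CD4 and CD8 are coreceptors that bind the antigen-presenting molecule, and CD2 is an adhesion receptor of T and natural killer cells. B cells signal through the Cd79a and Cd79b products, the partners of surface immunoglobulin, and Ms4a1 encodes CD20, a membrane protein of mature B cells. Glucocorticoids are known to kill immature lymphocytes and to move mature ones between blood, marrow and tissues, and dexamethasone is used in the clinic for these effects.

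The sequences below are those of the array's 60-base probes, because each value in the text is the brightness of 1 such probe. The whole probe is given for 5 genes, and only its first 30 bases for Cd8a, Cd79b and Ms4a1. Whether a probe lies in coding sequence was not looked up. All letters are lower case because no base is singled out. Positions are those of the mm7 mouse assembly given in the files. A span over 60 bases means that the probe's bases are split over that stretch of the genome, and it was read from the position column, not aligned here.
Cd3d, chr9:44920433-44920664, plus strand: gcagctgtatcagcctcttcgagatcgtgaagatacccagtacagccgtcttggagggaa
Cd3g, chr9:44907978-44908562, minus strand: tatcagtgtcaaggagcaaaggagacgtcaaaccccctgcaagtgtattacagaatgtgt
Cd2, chr3:101074696-101077875, minus strand: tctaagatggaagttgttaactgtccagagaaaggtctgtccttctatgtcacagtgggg
Cd4, chr6:124894079-124894138, minus strand: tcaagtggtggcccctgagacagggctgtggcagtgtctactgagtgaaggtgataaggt
Cd79a, chr7:21688822-21689079, plus strand: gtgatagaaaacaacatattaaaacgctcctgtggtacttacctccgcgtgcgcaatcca
Cd8a, chr6:71395267-71395326, plus strand, first 30 bases: ttaggtatgtgtctttagtatagcatgctt
Cd79b, chr11:106420507-106420566, minus strand, first 30 bases: agagacttgttggaatctgcaaatggactc
Ms4a1, chr19:10931002-10931061, minus strand, first 30 bases: gctgtgctttgagattctttccaaatggca

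Values are log2 intensities relative to the 75th percentile of the same array, so a value of -3 is a signal 3 doublings under that percentile, and a difference between groups is a log2 change. Levels of different probes are not set against each other. The 75th percentile ran from 897 to 1614 units, and each array had 62.2% to 72.3% of its probes well above background. Precision is limited by the 3 arrays of each group. As a check of the treatment labels, 7 of 8 known glucocorticoid-induced genes rose with dexamethasone, with a median log2 change of 2.18 averaged over the genotypes. Hes1 averaged -1.53 ± 0.34 (SD, n = 3) in untreated wild-type and -2.65 ± 0.38 (SD, n = 3) in untreated HESKOL liver. That difference of -1.12 was not called (SE 0.43, limma adjusted p = 0.9999). Treated livers averaged -2.22 ± 0.93 in wild type and -3.32 ± 0.47 in HESKOL (SD, n = 3). Where the Hes1 probe lies relative to any altered part of the gene is not known here. As a check of the tissue, the mean log2 level of the hepatocyte genes lay between 7.48 and 8.26 on every array.

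The libraries are not evenly spread over the 3 slides. Slide 1 carried every untreated wild-type liver together with HESKOL untreated replicate 1. HESKOL untreated replicates 2 and 3 shared slide 2 with the first 2 dexamethasone-treated wild-type livers, and slide 3 carried the remaining treated livers. Treated and untreated livers of 1 genotype never met on a slide, so slide and dexamethasone cannot be told apart within a genotype. One array, wild-type dexamethasone replicate 1, also stood apart, with a root mean square deviation from the rest of its group of 0.994 log2 units against 0.463 to 0.799 on the other arrays. On it the glucocorticoid-induced genes had a mean log2 level of 3.86, against 4.86 and 4.87 on the other two treated wild-type arrays and 1.99 to 2.36 on the untreated arrays. Changes of the markers and counts over the lists are therefore also given without this array.

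All 9 lymphocyte markers had a negative mean change after dexamethasone, and 2 B cell markers passed the test. Averaged over the genotypes, Ms4a1 fell 5.86-fold and Cd79a 1.999-fold, and these were the 2 of 9 markers that passed the threshold of limma's test, an adjusted p under 0.05 over all 18721 features. In that comparison 11.8% of all features were called, and 6.51% of all features were called lower. Without wild-type dexamethasone replicate 1, 7 of 9 passed, all lower, where 23.0% of all features were called and 13.0% were called lower. Leaving out HESKOL dexamethasone replicate 2 kept 1 call, where 1193 of 18850 features were called, and leaving out each remaining array kept none. With slide as a fixed block none passed, and the signs were mixed. With slide as a random block 3 of 9 passed and all 9 were negative, where 3154 of 18721 features were called. The correlation within slides that this fit used was -0.0617, so it did not remove slide differences as the fixed block does. In whole-liver RNA, fewer cells of a type and less RNA per cell cannot be told apart.

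Cd79a and Cd79b encode the signalling partners of the B cell receptor. The log2 level of Cd79a was -5.06, -5.99 and -5.66 in untreated wild-type livers and -5.14, -6.32 and -6.69 after dexamethasone. In HESKOL livers it was -4.91, -5.47 and -5.38 untreated and -7.06, -6.49 and -6.75 after dexamethasone. All 3 treated HESKOL livers lay below all 3 untreated ones, whereas the treated wild-type livers overlapped the untreated ones through replicate 1, and replicate 3 was not well above background. Cd79a fell by 1.51 (SE 0.39, limma adjusted p = 0.0391) in HESKOL liver, the single marker of 9 called in that comparison, where 7.87% of all features were called and 4.23% were called lower. That call was lost without any 1 of the 6 HESKOL arrays and without wild-type untreated replicate 2 or 3. The change in wild-type liver was -0.48 (SE 0.39, limma adjusted p = 0.670), and averaged over genotypes it was -0.999 (SE 0.27, limma adjusted p = 0.0391, exact permutation p = 0.02, two-sided), a call lost without any 1 array but wild-type dexamethasone replicate 1, whose omission gave -1.23 (limma adjusted p = 0.00304).

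For Cd79b the log2 level was -0.28, -1.33 and -1.01 in untreated and -0.19, -2.55 and -3.85 in treated wild-type livers. Untreated HESKOL livers gave 0.34, -0.17 and -0.77, and treated ones -1.64, -1.17 and -3.15. Treated wild-type replicate 1 was the highest of all wild-type livers, and all other treated livers but HESKOL replicate 2 lay below every untreated liver. The averaged change was -1.55 (SE 0.56, limma adjusted p = 0.0983, exact permutation p = 0.04, two-sided) and missed the threshold over all features. Without wild-type dexamethasone replicate 1 it was -2.06 (SE 0.41, limma adjusted p = 0.00659).

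Ms4a1, the gene of CD20, moved furthest of the 9. Its log2 level was -2.34, -3.12 and -2.82 in untreated wild-type livers and -2.82, -5.98 and -7.04 in treated ones. HESKOL livers gave -1.29, -2.40 and -2.76 untreated and -4.38, -3.62 and -6.20 treated. Replicate 1 of the treated wild-type livers lay within the untreated range, replicate 3 was not well above background, and every other treated liver was below all 6 untreated livers. Averaged over the genotypes it changed by -2.55 (SE 0.67, limma adjusted p = 0.0337, exact permutation p = 0.01, two-sided), with a 95% interval from -4.02 to -1.08. With any 1 array left out other than wild-type dexamethasone replicate 1 or HESKOL dexamethasone replicate 2, that call was lost. In wild-type liver alone it was -2.52 (SE 0.95, limma adjusted p = 0.337) and in HESKOL liver alone -2.58 (SE 0.95, limma adjusted p = 0.120). Without wild-type dexamethasone replicate 1 the wild-type change was -3.75 (limma adjusted p = 0.0171) and the HESKOL change, whose value does not use that array, had a limma adjusted p of 0.0225. A second Ms4a1 probe, well above background on 10 of 12 arrays, changed by -2.01 on average.

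**Figure D1:**
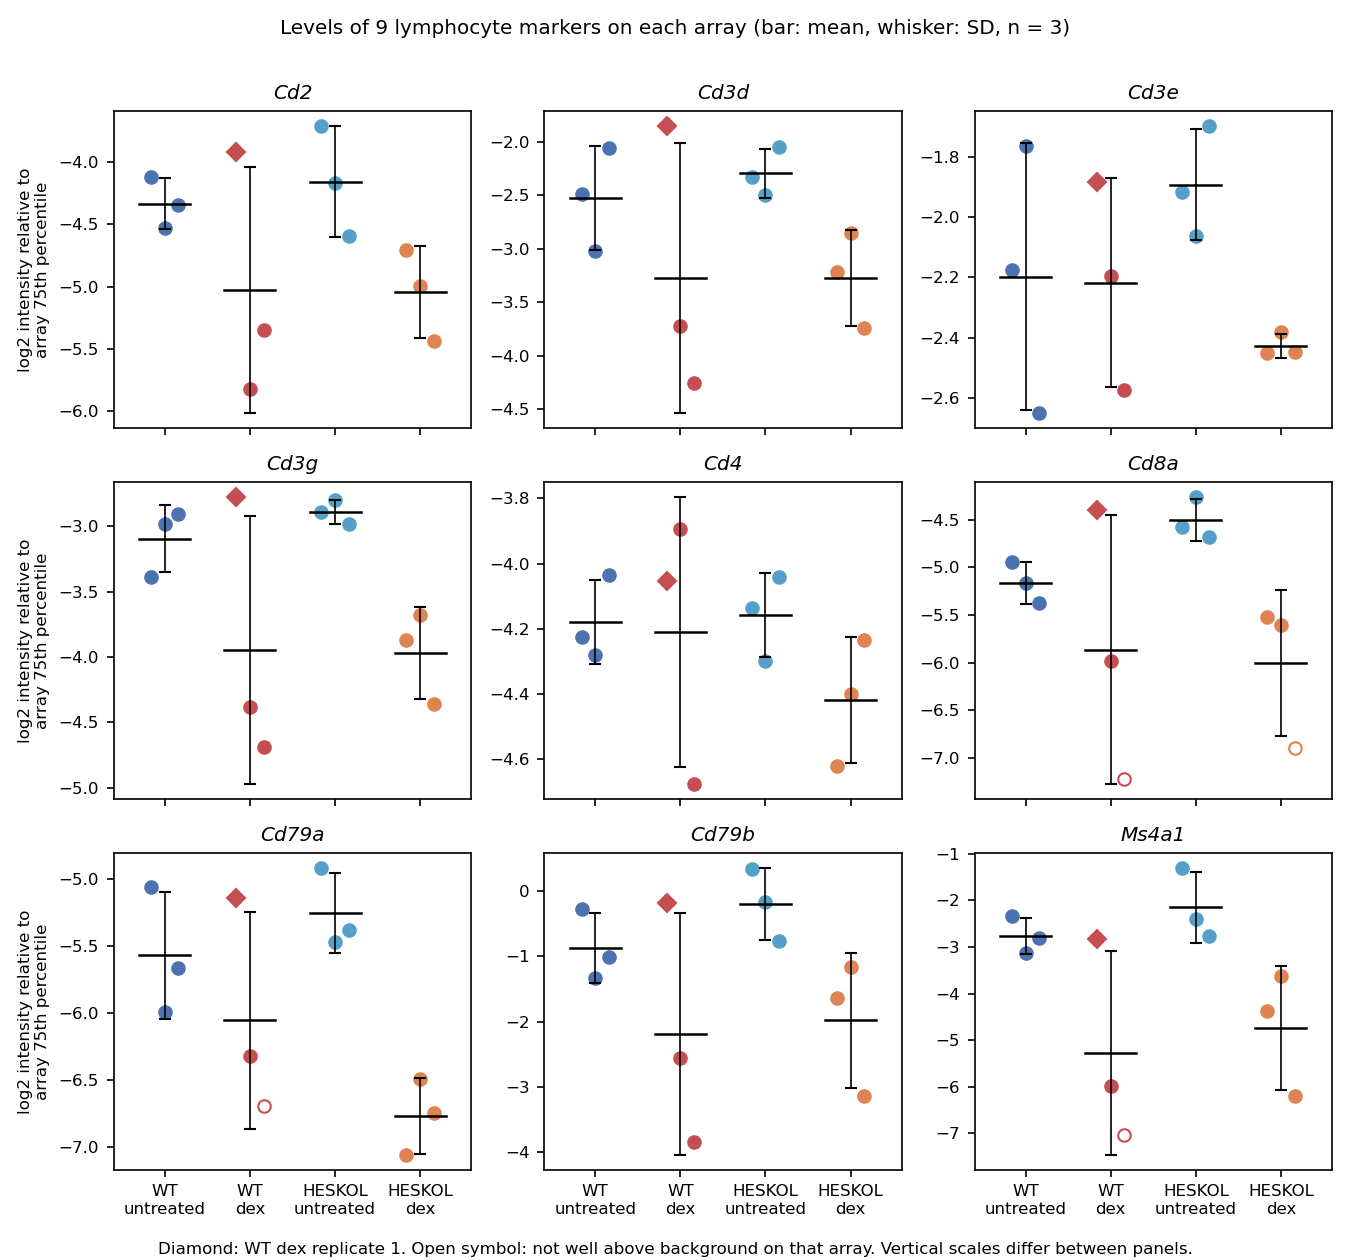
Log2 intensity relative to the 75th percentile of the array (vertical axis, a separate scale per gene) of the 9 markers in the 4 groups, with 1 point per array, the mean as a bar and the SD as a whisker (n = 3). The diamond is wild-type dexamethasone replicate 1, which lies at or above the untreated median for 8 of 9 markers, and in HESKOL liver the treated points lie wholly below the untreated points for every marker except Cd4.

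Cd3d, Cd3e and Cd3g encode chains of the CD3 complex. Cd3g had a log2 level of -3.39, -2.98 and -2.91 in untreated and -2.77, -4.38 and -4.69 in treated wild-type livers. In HESKOL livers it was -2.89, -2.80 and -2.98 untreated and -3.87, -3.68 and -4.36 treated. All treated livers but wild-type replicate 1, the highest of the 12, lay below all untreated livers. The averaged change was -0.97 (SE 0.30, limma adjusted p = 0.0567, exact permutation p = 0.02, two-sided), and without that replicate it was -1.26 (limma adjusted p = 0.000980).

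Cd3d had a similar pattern over the livers. Its log2 level was -2.49, -3.02 and -2.06 in untreated and -1.85, -3.72 and -4.26 in treated wild-type livers. Untreated HESKOL livers gave -2.33, -2.50 and -2.05 and treated ones -3.22, -2.85 and -3.74. Replicate 1 of the treated wild-type group was again the highest of the 12, and HESKOL dexamethasone replicate 2 reached into the range of the untreated wild-type livers. The averaged change was -0.86 (SE 0.37, limma adjusted p = 0.153, exact permutation p = 0.06, two-sided), and -1.22 (limma adjusted p = 0.00506) without wild-type dexamethasone replicate 1.

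Cd3e, the third CD3 chain, changed less. It was -2.18, -1.77 and -2.65 in untreated and -1.88, -2.19 and -2.57 in treated wild-type livers, which overlapped fully. In HESKOL livers it was -1.92, -2.06 and -1.70 untreated and -2.45, -2.38 and -2.45 treated, and the groups did not overlap. Its averaged change was -0.28 (95% interval -0.68 to 0.12, limma adjusted p = 0.353), and -0.36 (limma adjusted p = 0.173) without wild-type dexamethasone replicate 1. A second Cd3e probe was not well above background on any of the 12 arrays and says nothing of the level.

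Cd3d, Cd3e and Cd3g are neighbours on chromosome 9. In RefSeq's GRCm38.p6 annotation the start sites of Cd3g and Cd3d lie 1355 bases apart, on opposite strands, and those of Cd3d and Cd3e 27825 bases apart. Over the 12 arrays Cd3d and Cd3g had a Pearson correlation of 0.92, against 0.49 for Cd3d with Cd3e and 0.60 for Cd3g with Cd3e, which describes these arrays and shares their group differences. Markers on other chromosomes reached like values, such as 0.93 for Cd3g with Ms4a1 and 0.92 for Cd3g with Cd8a, so the likeness is not particular to neighbours. The Cd3g and Cd3d promoters (250 bases before to 50 after the start) are shown because their start sites lie closest together. Capitals mark the E-box forms CAGCTG and CAGGTG on either strand, the letters that E proteins of lymphocytes are known to bind.
Cd3d promoter, GRCm38.p6 chr9:44981536-44981835, plus strand: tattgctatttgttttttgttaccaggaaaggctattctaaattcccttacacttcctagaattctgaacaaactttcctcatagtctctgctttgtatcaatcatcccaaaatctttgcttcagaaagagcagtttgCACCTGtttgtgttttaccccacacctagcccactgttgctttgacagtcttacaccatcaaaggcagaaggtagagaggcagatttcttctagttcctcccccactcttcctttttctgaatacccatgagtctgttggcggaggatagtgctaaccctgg
Cd3g promoter, GRCm38.p6 chr9:44980382-44980681, minus strand: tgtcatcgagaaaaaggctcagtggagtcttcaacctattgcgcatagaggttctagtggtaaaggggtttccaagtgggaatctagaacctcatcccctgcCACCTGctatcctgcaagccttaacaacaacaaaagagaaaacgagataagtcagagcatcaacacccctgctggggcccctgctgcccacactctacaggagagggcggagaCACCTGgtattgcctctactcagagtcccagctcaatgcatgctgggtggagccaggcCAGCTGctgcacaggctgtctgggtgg

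RefSeq promoters were found for 5 of the 9 markers (Cd3d, Cd3e, Cd3g, Cd8a and Cd79a). CAGGTG on either strand was in 4 of the 5 (all but Cd8a) and in 20.2% of all 32851 promoters of that length. CAGCTG was in 2 of 5 (Cd3g and Cd8a) and in 16.3% of all. The ETS letters CAGGAAGT were in 2 of 5 (Cd3e and Cd79a) and in 3.33% of all. The palindromic glucocorticoid response element, TGTTCT and its reverse complement 3 bases apart, was in none of the 5 and in 0.00913% of all, and TGTTCT alone in 1 of 5 (Cd8a) and in 19.0% of all. The EBF letters, TCCC and GGGA 2 bases apart, and the octamer ATTTGCAT were in none of the 5, against 0.904% and 1.74% of all promoters. A match here describes letters in a window, not a bound site.

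The probes that stood for Cd8a, Cd4 and Cd2 differed in the size of their changes. Cd8a had a log2 level of -4.94, -5.17 and -5.38 in untreated and -4.40, -5.98 and -7.22 in treated wild-type livers. In HESKOL livers Cd8a was -4.57, -4.26 and -4.68 untreated and -5.52, -5.60 and -6.89 treated. All treated livers but wild-type replicate 1 lay below all untreated ones, and replicate 3 of both treated groups was not well above background. The averaged change was -1.10 (SE 0.42, limma adjusted p = 0.110, exact permutation p = 0.04, two-sided), and -1.47 (limma adjusted p = 0.00775) without wild-type dexamethasone replicate 1. The 2 other Cd8a probes changed by -0.81 and -0.27 and were well above background on 8 and 4 of the 12 arrays.

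The probe that stood for Cd4 showed no change past its spread. It was -4.22, -4.28 and -4.03 in untreated and -4.05, -3.89 and -4.68 in treated wild-type livers. In HESKOL livers it was -4.14, -4.30 and -4.04 untreated and -4.62, -4.40 and -4.23 treated, and the groups overlapped in both genotypes. On average it changed by -0.14 (SE 0.16, 95% interval -0.50 to 0.21, limma adjusted p = 0.605), and by -0.18 (limma adjusted p = 0.473) without wild-type dexamethasone replicate 1. This probe is printed as 10 spots on each array, whose SD had a median of 0.16 log2 units. A second Cd4 probe, well above background on 7 of 12 arrays, changed by -1.03 (exact permutation p = 0.055, two-sided), so the probes of Cd4 disagree in size. In HESKOL liver all 3 treated arrays of that probe lay below the 3 untreated ones, and 1 of the treated was well above background.

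Cd2, the adhesion receptor, was -4.12, -4.53 and -4.34 in untreated and -3.92, -5.82 and -5.35 in treated wild-type livers. HESKOL livers had -3.71, -4.17 and -4.60 untreated and -4.70, -4.99 and -5.44 treated. The treated HESKOL livers and treated wild-type replicates 2 and 3 lay below all 6 untreated livers. The averaged change was -0.79 (SE 0.31, limma adjusted p = 0.116, exact permutation p = 0.05, two-sided), and -1.07 (limma adjusted p = 0.00594) without wild-type dexamethasone replicate 1.

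As a list, the 9 markers had a negative log2 change in both genotypes, with a median of -0.70 in wild-type and -1.08 in HESKOL liver. The median was -0.93 for the 6 T cell markers and -1.79 for the 3 B cell markers in HESKOL liver, and -0.70 and -1.32 in wild-type liver. Over all features tested, 52.1% and 50.2% of the changes were negative, with medians of -0.02 and -0.003. In HESKOL liver 8 of 9 markers had all treated arrays below all untreated arrays, where 18.7% of all features did. In wild-type liver 0 of 9 did, where 5.96% of all features did, and without replicate 1 the count was 7 of 9 (all but Cd3e and Cd4), where 20.0% of all features did. In wild-type liver limma called 0 of 9 markers, where 0.192% of all features were called, and 1 of 9 (Ms4a1, lower) had an unadjusted p under 0.05, where 6.07% of all features had one and were lower. Without wild-type dexamethasone replicate 1, 4 of 9 were called there (Cd2, Cd3d, Cd3g and Ms4a1, where 5.91% of all were called), and 4 of 9 in HESKOL liver (Cd3g, Cd8a, Cd79a and Ms4a1, where 14.9% were called). The HESKOL changes themselves do not use that array and kept a median of -1.08. Only the error estimate, which the fit shares over the 4 groups, and the set of features tested differed.

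**Figure D2:**
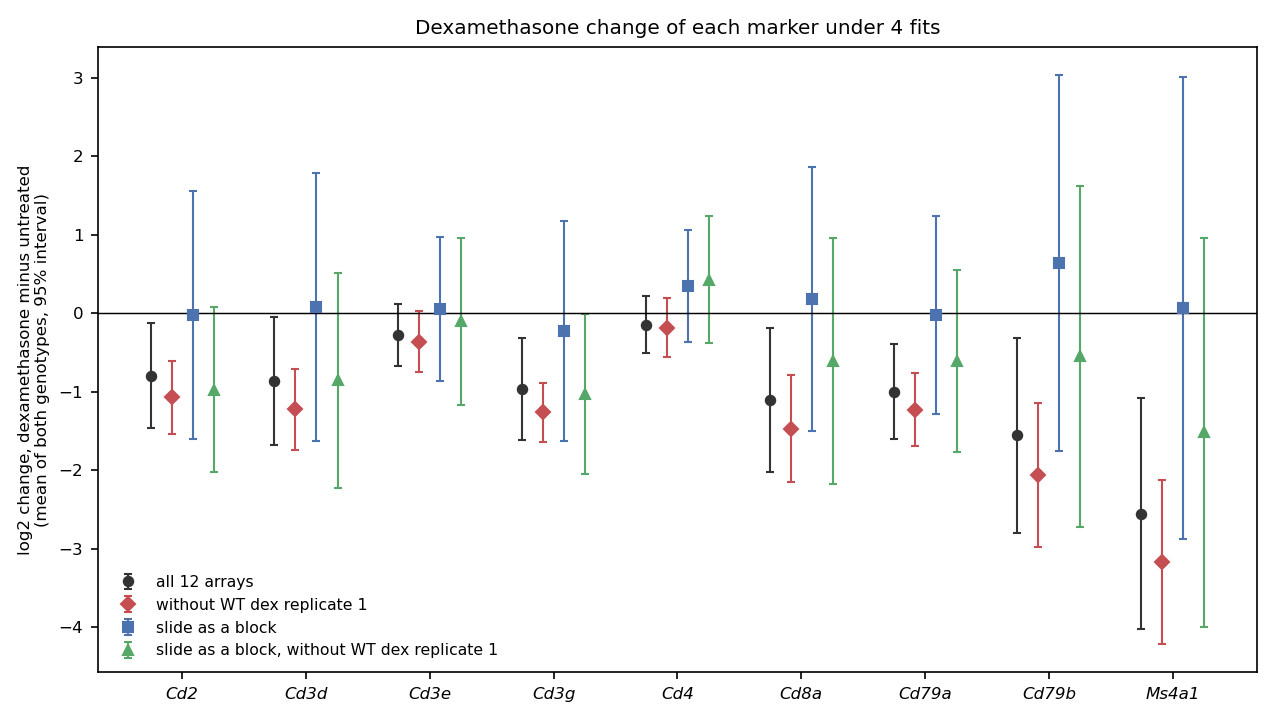
Log2 change with dexamethasone, as the mean of both genotypes (vertical axis, with 95% intervals from limma), of each marker under 4 fits: all 12 arrays, without wild-type dexamethasone replicate 1, with slide as a block, and with both. With all arrays the values lie between -2.55 (Ms4a1) and -0.14 (Cd4), and with slide as a block every interval includes 0.

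Slide as a fixed block ended both calls and turned the sign of 6 of 9 averaged changes. With it, the averaged change was 0.06 for Ms4a1 and -0.02 for Cd79a, and none passed limma's threshold (0.0% of all features did) or had an unadjusted p under 0.05, where 2.07% of all features had one and were lower. That fit joins slide 2, where treated wild-type livers met untreated HESKOL livers, with the genotype differences within slides 1 and 3. Each of those differences rests on a single array of 1 genotype, HESKOL untreated replicate 1 or wild-type dexamethasone replicate 3. HESKOL was higher for 9 of 9 markers on slide 1 (median 0.59, Ms4a1 1.47) and for 8 of 9 on slide 3 (median 0.72, Ms4a1 2.30). Within slide 2, treated wild-type replicate 1 was above the mean of HESKOL untreated replicates 2 and 3 for 7 of 9 markers, with a median difference of 0.12. Treated wild-type replicate 2, on the same slide, was below that mean for 8 of 9 markers, with a median difference of -1.44 and with -3.40 for Ms4a1. With slide as a block and replicate 1 left out, 8 of 9 markers were negative, all but Cd4, with a median of -0.61, and 0 were called by limma. Cd3g alone had an unadjusted p under 0.05, where 3.3% of all features had one and were lower. With normexp background correction, which changes dim signals most, the averaged change was -1.21 for Ms4a1 and 0.18 for Cd79a, 5 of 9 markers were negative, and none passed. Over all features the median averaged change was then 0.14, and 36.4% of the changes were negative.

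**Figure D3:**
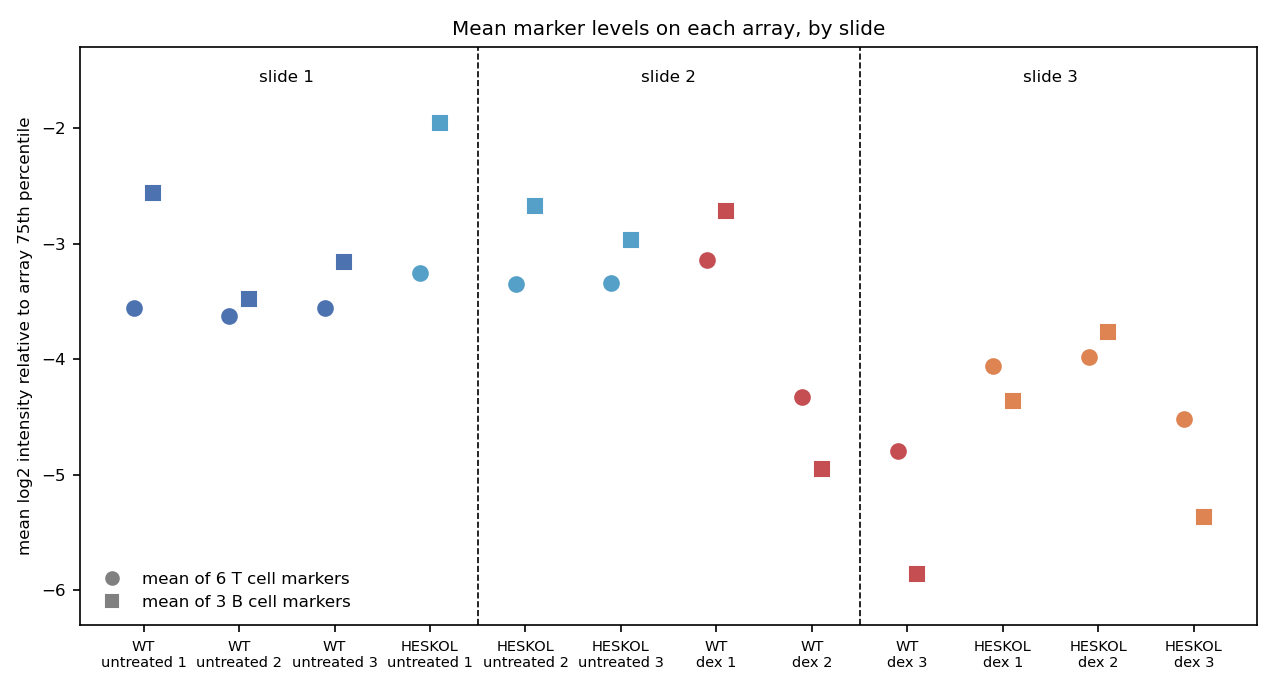
Mean log2 level of the 6 T cell markers (circles) and the 3 B cell markers (squares) on each of the 12 arrays, in slide order, with dashed lines between slides. On slide 2, treated wild-type replicate 1 lies beside the untreated HESKOL arrays and treated wild-type replicate 2 lies below them, and all 4 treated arrays of slide 3 lie below the 4 untreated arrays of slide 1.

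The genotypes were compared next. In untreated liver all 9 markers were higher in HESKOL than in wild type, by a median log2 difference of 0.31 and from 0.02 (Cd4) to 0.68 (Cd79b). Over all features the median difference was 0.04, and 41.7% of the differences were negative. Limma called 0 of 9, none had an unadjusted p under 0.05, and 0.0% of all features were called (297 had an unadjusted p under 0.05). Cd8a was the single marker whose HESKOL arrays all lay above the wild-type arrays, as 4.15% of all features did, at 0.66 (SE 0.59) and an exact permutation p of 0.1, the smallest that 3 against 3 arrays allow. Cd4 turned negative under 5 of the other settings, and without wild-type untreated replicate 1 or 2 or HESKOL untreated replicate 3. Within slide 1, HESKOL untreated replicate 1 was above the mean of the wild-type livers for 9 of 9 markers, with a median difference of 0.59.

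After dexamethasone 6 markers were lower and 3 higher in HESKOL than in wild type, with a median of -0.02 and with 0 called by limma, where 1.14% of all features were called. The largest difference was that of Cd79a, at -0.71 (SE 0.39, limma adjusted p = 0.404). Without wild-type dexamethasone replicate 1 the median was 0.56 and 6 of 9 markers were higher in HESKOL. The dexamethasone effects of the genotypes were also compared directly. Their difference was negative for all 9 markers, with a median of -0.23, and limma called 0 of 9, where 0.016% of all features were called and the lowest adjusted p among the markers was 0.799. With that array left out the median was 0.36 and 5 of 9 were positive. The sign of the median also turned with slide as a block, to 0.51 with 6 of 9 positive, and with the unscaled deposited table, to 0.013 with 5 of 9 positive.

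Further genes of the same cells were read from lists. Of 22 tested genes of T cells beyond the markers, 5 fell and 1 rose on average over the genotypes, with a median of -0.62, where 6.51% of all features were called lower. Those that fell were Tcf7 (-1.13), a transcription factor of naive T cells, Cd27 (-1.25) and Icos (-1.10), costimulatory receptors, Ltb (-1.36), the gene of lymphotoxin beta, and Skap1 (-1.16), an adaptor of T cell adhesion. Cd28, a costimulatory receptor, rose by 2.51 (SE 0.35, limma adjusted p = 0.00275), while 19 of the 22 had negative values. Cd247, the fourth CD3-complex chain, had -1.07 (limma adjusted p = 0.0811), Lck, the kinase of the coreceptors, -0.73 (limma adjusted p = 0.0958) and Zap70, the next kinase, -0.09 (limma adjusted p = 0.878). With wild-type dexamethasone replicate 1 left out, 11 of 23 fell and 2 rose, with a median of -0.71, where 13.0% of all features were called lower. With slide as a block none of the 22 was called and the median was -0.076.

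Of 21 tested genes of B cells beyond the markers, 6 fell and none rose, with a median of -1.22 and 20 negative values, where 6.51% of all features were called lower. Cxcr5, the chemokine receptor that guides B cells into follicles, had -2.95 (SE 0.79, limma adjusted p = 0.0368). Fcer2a, the gene of CD23, had -2.18, and Blnk, the adaptor downstream of the B cell receptor, -2.04. Tnfrsf13c, the receptor of the survival factor BAFF, had -1.80, Bank1, a B cell scaffold, -1.79, and Vpreb3 -1.35, and all of these passed limma's threshold. Cd22 had -1.10 (limma adjusted p = 0.137) and Cd37 -0.34 (limma adjusted p = 0.329). Leaving out wild-type dexamethasone replicate 1, 15 of 21 fell, with a median of -1.47, where 13.0% of all features were called lower, and with slide as a block none of the 21 was called and the median was 0.12.

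**Figure D4:**
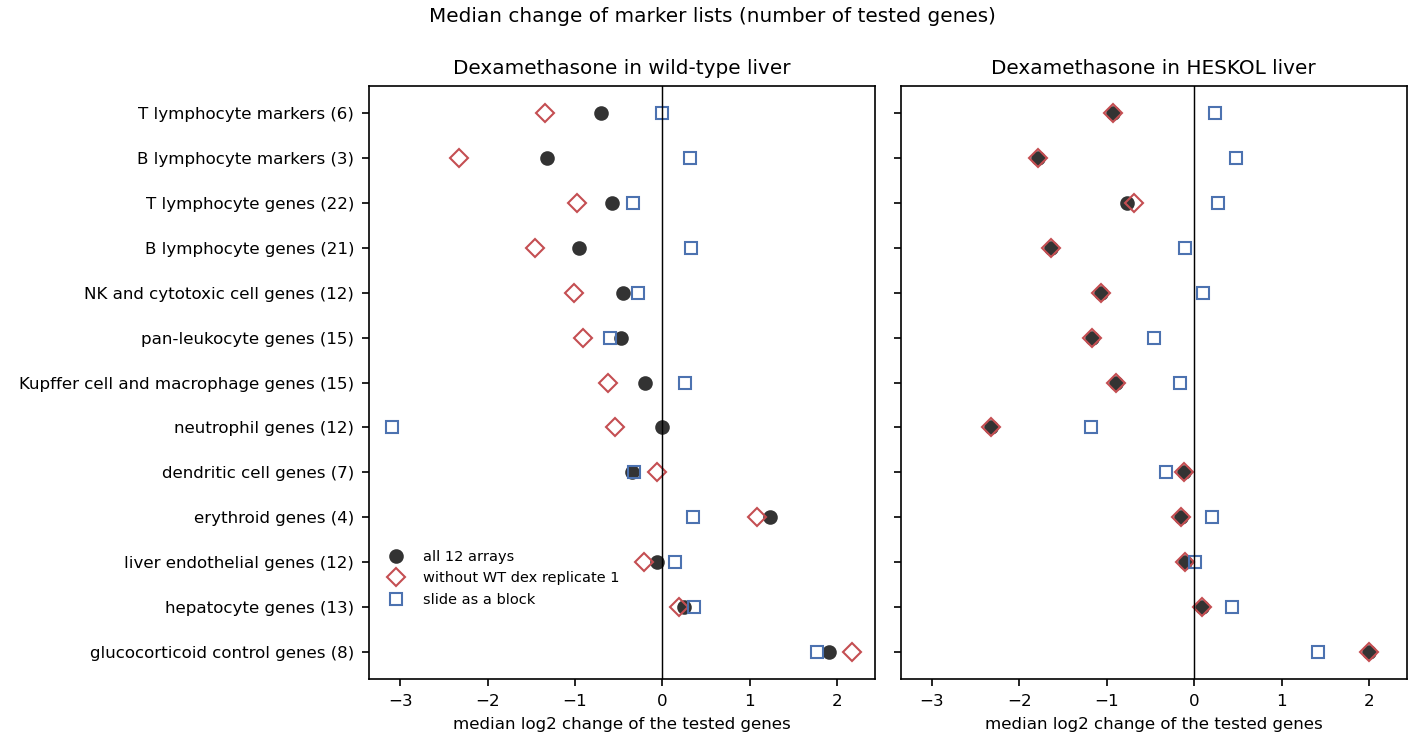
Median log2 change with dexamethasone of the tested genes of each list (number in brackets) in wild-type (left) and HESKOL liver (right), with all arrays, without wild-type dexamethasone replicate 1 and with slide as a block. With all arrays, B lymphocyte genes lie at -0.96 and -1.64 and hepatocyte genes at 0.24 and 0.09, and with slide as a block the lymphocyte lists lie between -0.34 and 0.48.

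Markers of the other cells that a liver holds moved with the lymphocyte markers to different degrees, and their part in the result was not tested. Of 12 natural killer and cytotoxic cell genes, 3 fell (Klrk1 with -1.97, Xcl1 by 1.68 and Tbx21 by 1.13) with a median of -0.64, while Klrb1c had -0.31 and Klrd1 -0.48 and neither passed. Of 15 genes that most leukocytes share, 1 fell (Cd48, -1.04) with a median of -0.83, and Ptprc, the gene of CD45, had -1.17 (limma adjusted p = 0.0828), Cd52 -1.25 and Coro1a -1.01. Of 15 Kupffer cell and macrophage genes, 2 fell (Adgre1, the gene of F4/80, by 1.03 and Lyz2 by 1.09) with a median of -0.59, while Clec4f had -0.24 and Cd5l -0.64. None of 12 neutrophil genes passed, with a median of -0.95 (S100a8 -0.87, S100a9 -0.88 and Mpo -2.15). Their mean log2 level varied widely within groups, from -2.40 to 2.88 in untreated and -1.70 to 0.99 in treated wild-type livers. In HESKOL livers it ran from -2.48 to 2.33 untreated and from -4.11 to -0.26 treated. In these comparisons 6.51% of all features were called lower, and 1 of 15 is near that share. With wild-type dexamethasone replicate 1 left out, where 13.0% of all features were called lower, 6 of 12 natural killer and cytotoxic, 7 of 15 pan-leukocyte, 6 of 15 Kupffer cell and macrophage and 0 of 12 neutrophil genes fell. With slide as a block none of these genes was called, and the medians were -0.22, -0.57, 0.048 and -2.40 in the same order. The summed signal of the pan-leukocyte list, in units of the 75th percentile, ran from 19.7 to 65.3 in untreated and 14.1 to 36.7 in treated wild-type livers, and from 29.3 to 59.8 and 12.4 to 19.7 in HESKOL livers. Its highest treated value was that of wild-type dexamethasone replicate 1.

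Lists of other liver cells had medians of the averaged change between -0.21 and 0.56. Of 12 endothelial genes, Kdr (-1.09) and Fcgr2b (-0.64) fell and Lyve1, a marker of sinusoidal and lymphatic endothelium, rose by 2.42, with a median of -0.09, and Pecam1 had 0.11 and Cdh5 0.20. Of 13 hepatocyte genes Cps1 (0.89) and Tat (1.44), an enzyme gene that glucocorticoids are known to induce, rose and Ttr (-0.75) fell, with a median of 0.21, and Alb had 0.15, Apoa1 0.59 and Apoa2 0.14. Of 7 dendritic cell genes Xcr1 rose by 0.52, with a median of -0.21, and Itgax had -0.96 and Flt3 -0.21. None of 4 erythroid genes passed, with a median of 0.56 (Hba-a1 0.72, Hbb-bt 0.47 and Alas2 -0.24). With all arrays 11.8% of all features were called, and 1 of 7 is near that share. Without wild-type dexamethasone replicate 1, 23.0% of all features were called. The calls were then 2 lower and 2 higher for endothelial genes and 1 lower and 3 higher for hepatocyte genes. Dendritic cell genes had 1 higher and erythroid genes 0. In wild-type liver alone the erythroid median was 1.23. The lists differ in size and level, and no difference between lists was tested.

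Genes whose pattern over the 12 arrays was most like that of the markers were ranked among 14590 named genes, as a description. With the mean of Cd3d, Cd3e and Cd3g, the highest Pearson correlations were those of Cadm1 (0.98), Msmo1 (0.97), Il18 (0.97), Slc26a4 (0.97) and Endou (0.97). With the mean of Cd79a, Cd79b and Ms4a1 Aif1 (0.99), Fcmr (0.98), Pigz (0.98) and Ckb (0.96) were among the highest, of which Fcmr, a receptor for immunoglobulin M on B cells, is in the B cell list. All arrays share the treatment and slide differences, and with so many genes high values are found at the top of any such ranking. Among the 9 markers, the highest correlation was between Cd79b and Ms4a1 (0.98), and the 8 pairs with Cd4 lay between 0.15 and 0.58.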

How the data were processed

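Total RNA of 12 mouse livers was measured on one-colour Agilent arrays. Per the file headers, the authors extracted each spot's intensity with Feature Extraction 9.5.3.1, and the deposited processed signal is an intensity on a linear scale, with background removed and no scaling between arrays. The deposited series table equals it (ratio 1). No other normalization is given in the sources used here.

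Here the log2 intensity minus the 75th percentile of the array was used, over non-control spots and without spots marked as outliers. Spots of a probe were averaged, and the probe with the highest mean stood for its gene. A feature was tested if that probe stood well above background throughout 1 or more groups. With limma 3.58.1 in R 4.3.3, 4 group means were fitted over the 12 arrays (8 residual and 3.12 prior degrees of freedom), with Benjamini-Hochberg adjustment over 18721 features and a threshold of 0.05. Single values were also compared by exact two-sided permutation, of 3 against 3 arrays (smallest p 0.1) or within genotypes for the averaged effect (smallest p 0.005). Groups came from the sample titles, and the series design gives 3 mice per group.

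The markers and gene lists were chosen with earlier results of these data known. Named were the 9 markers, the first 3 tested genes of each other list, its called genes where 5 or fewer passed, and the 5 genes most like the T and B cell patterns, apart from items not reported here. The 6 called T cell genes, the 6 called B cell genes and the 7 called glucocorticoid-induced genes exceed that number. The called T and B cell genes were named after their values were seen. Alternatives were quantile or median scaling, normexp (offset 50), the unscaled deposited table, no filter, the mean over probes, a robust fit with an intensity trend, blocks by slide (fixed or random) or by replicate number, and leaving out each array. Slide as a block for the lists, and slide as a block without wild-type dexamethasone replicate 1, were added after seeing the data. On simulated arrays of 18721 features, the averaged comparison recovered 40% of log2 changes of 1 and 92% of changes of 2. Same-numbered arrays did not pair.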

Additional observations from a re-analysis of the deposited data

How the results depend on the processing

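Of the marker counts called by limma, those of dexamethasone in wild-type liver, of both genotype comparisons and of the difference between dexamethasone effects stayed at 0 with every other setting, except for 4 in wild-type liver without wild-type dexamethasone replicate 1. The count in HESKOL liver went from 1 to 0 with normexp, no filter, slide as a fixed block, and that block without wild-type dexamethasone replicate 1. The averaged count went from 2 to 0 with normexp, with slide as a fixed block, and with that block without wild-type dexamethasone replicate 1. It was 1 with no filter and 3 with slide as a random block, the unscaled table or the replicate block. With one array left out the counts ran from 0 to 4 in wild-type liver, 0 to 4 in HESKOL liver and 0 to 7 on average, the highest each time without wild-type dexamethasone replicate 1. The averaged change of Cd79a lost its call without any single array other than wild-type dexamethasone replicate 1, and that of Ms4a1 without any but that array and HESKOL dexamethasone replicate 2. In each of those fits both stayed negative. With no filter the changes were the same, but the error estimate and the adjustment drew on 27814 features. Cd79a then lost its call and Ms4a1 kept it. Why calls were lost without single arrays was not tested.

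The signs of single markers turned as follows. In wild-type liver the change with dexamethasone became positive with quantile normalization for Cd3e (0.091) and Cd4 (0.024), and with median scaling for Cd3e (0.0003). With normexp it did so for Cd2 (0.35), Cd3e (0.15), Cd4 (0.58), Cd8a (0.57) and Cd79a (0.60). With slide as a fixed block it did so for Cd2 (0.14), Cd3e (0.12), Cd4 (0.24), Cd79a (0.35) and Cd79b (0.32), and also without wild-type dexamethasone replicate 1 only for Cd4 (0.32). In HESKOL liver the fixed block turned Cd3d (0.48), Cd3g (0.033), Cd4 (0.45), Cd8a (0.49), Cd79b (0.96) and Ms4a1 (0.48), and without that replicate only Cd4 (0.54). The averaged change became positive with normexp for Cd2 (0.0045), Cd4 (0.25), Cd8a (0.082) and Cd79a (0.18). With the fixed block it did so for Cd3d (0.081), Cd3e (0.053), Cd4 (0.35), Cd8a (0.18), Cd79b (0.64) and Ms4a1 (0.063), and without that replicate only for Cd4 (0.43).

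Between untreated genotypes Cd4 became negative with quantile normalization (-0.086), median scaling (-0.069), normexp (-0.014), the unscaled table (-0.063) and the mean over probes (-0.12). Cd79a did so with normexp (-0.0086) and Cd3e with the mean over probes (-0.048). Between treated genotypes Cd3d became negative with median scaling (-0.0016), normexp (-0.24) and slide as a random block (-0.081), and Ms4a1 with normexp (-0.25). There the unscaled table turned Cd2 (0.15), Cd3g (0.14) and Cd8a (0.023). The fixed block, with and without wild-type dexamethasone replicate 1, turned Cd2 (0.31), Cd3e (0.15), Cd3g (0.72), Cd4 (0.26) and Cd8a (1.21). The difference between dexamethasone effects turned with quantile normalization (0.0032) and median scaling (0.021) for Ms4a1, and with the unscaled table for Cd2 (0.056), Cd3d (0.022), Cd3g (0.017), Cd4 (0.013) and Ms4a1 (0.18). The fixed block, with and without that replicate, turned it for Cd3d (0.79), Cd3g (0.51), Cd4 (0.21), Cd8a (0.62), Cd79b (0.64) and Ms4a1 (0.84).

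With one array left out, the sign turned within these ranges. In wild-type liver they were -0.25 to 0.20 for Cd3e and -0.19 to 0.21 for Cd4. Between untreated genotypes they were -0.0499 to 0.40 for Cd2, -0.023 to 0.46 for Cd3d and -0.036 to 0.095 for Cd4. Between treated genotypes they were -0.41 to 0.54 for Cd2, -0.49 to 0.72 for Cd3d, -0.39 to 0.56 for Cd3g, -0.81 to 0.60 for Cd8a, -0.61 to 1.22 for Cd79b and -0.33 to 1.77 for Ms4a1. For the difference between dexamethasone effects they were -0.58 to 0.37 for Cd2, -0.71 to 0.49 for Cd3d, -0.60 to 0.36 for Cd3g, -1.29 to 0.54 for Cd79b and -0.94 to 1.16 for Ms4a1. In HESKOL liver and on average no marker turned when one array was left out. The averaged change then ran from -2.06 to -1.14 for Cd79b and from -1.22 to -0.62 for Cd3d. It ran from -1.26 to -0.78 for Cd3g, -1.47 to -0.76 for Cd8a and -1.07 to -0.60 for Cd2.

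Same-numbered arrays did not pair: of 18 such pairs 6 had deviations correlated over 0.1, and 4 of 12 arrays correlated best with their own number. With the replicate number as a block, 3 of 9 markers were called on average (Cd79b with a limma adjusted p of 0.0380) and 1 in HESKOL liver. Of all 18721 features, 2233 and 1491 were called with that block. Over all features, calls for the averaged effect were 2207, and 1302 with normexp, 1456 with no filter, 0 with slide as a fixed block and 1 when wild-type dexamethasone replicate 1 was also left out. In HESKOL liver they were 1473, and 711, 951, 0 and 1 in that order, and 2395 with slide as a random block. In wild-type liver they were 36, and 22 with no filter and 0 with the fixed block. Between treated genotypes they were 214, and 107 with normexp, 106 with no filter, 391 with the unscaled table, 125 with the replicate block, 3 with the fixed block and 44 with that block and without wild-type dexamethasone replicate 1. The difference between dexamethasone effects had 3 calls, and 7 with slide as a random block. The unscaled table moved the median change of all features to -0.21 for the averaged effect, and its calls split into 434 higher and 2076 lower, against 989 and 1218. Dim signals limit Cd8a, Cd79a and Ms4a1, which were not well above background on 1 of 3 treated wild-type arrays.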
